A study of Mus musculus with 66 samples.

Results

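The 10 genes described here code for heat-shock proteins and their partners: Hspa1a and Hspa1b (the paired inducible HSP70 genes), Hsph1 (HSP110), Dnajb1 (HSP40), Hspb1 (HSP27), Hspa8 (the constitutive HSC70), Hsp90aa1 (inducible HSP90 alpha), Hspd1 (HSP60), Hspe1 (HSP10) and Chordc1 (a partner of HSP90). They form a list of chaperone genes known to respond to heat-shock factor 1 (HSF1). No threshold on a measured value enters the list, but it was drawn up with earlier results of these data known. They are 10 of the 45706 gene identifiers in the files. Each symbol matched 1 identifier, and all 10 genes passed the filter on low counts in every comparison.

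HSF1 is held inactive by chaperones in unstressed cells. When unfolded protein occupies those chaperones, HSF1 forms trimers, binds heat-shock elements (inverted repeats of GAA) and raises transcription of chaperone genes, until enough free chaperone is again available to hold it inactive. HSP70 binds and releases unfolded stretches of protein in a cycle that the HSP40 proteins start and HSP110 resets, and HSP60 with HSP10 folds imported protein inside mitochondria. In the nervous system neurons carry high constitutive HSC70 and HSP90, while the inducible HSP70 and HSP27 genes are quiet at rest and respond to heat, injury and seizures.

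The mice carried spontaneous mutations of Rorb, which codes for the nuclear receptor RORβ, and show a high-stepping gait. Each mutant was homozygous: h1 (a duplication that takes in the first exon of the Rorb1 isoform and sequence upstream of the gene) arose on C57BL/6J, h2 and h3 (causal change not known) on the albino B6(Cg)-Tyr c-2J/J, h4 (a premature stop codon) on B6.129S7-Il1r1 tm1Imx/J, and h5 (loss of the start codon of the Rorb1 isoform) on DBA/1J. Controls were wild-type C57BL/6J for h1 to h4 and wild-type DBA/1J for h5, so in h2, h3 and h4 the Rorb allele cannot be told apart from the strain it arose on. RNA was sequenced from brain hemisections and spinal cord of all 7 genotypes and from cortex, hippocampus and cerebellum of h5 and DBA/1J mice, in 66 libraries of 20 groups with 4 mice for h2, h3 and h4 and 3 for the others. Ages were 8.0 weeks for C57BL/6J and h1, 7.9 to 9.4 weeks for h2, 8.0 to 9.6 for h3, 8.4 to 8.6 for h4, 8.4 to 8.9 for DBA/1J and 8.4 to 8.7 for h5 in brain and spinal cord, and 7.0 weeks for the dissected regions. The 24 brain and cord libraries with the same genotype and number have the same sex and age in the labels and were taken as 1 mouse each, as were the 3 regions of a number (6 mice), which the labels do not state. The h5 and DBA/1J regions differ in age from the hemisections and were treated as other mice. In brain and cord C57BL/6J, h1 and h5 were 2 females and 1 male, DBA/1J 1 female and 2 males, and h2, h3 and h4 had 3, 1 and 2 females of 4, so there each mutant but h1 differs in sex from its control, as do the strains from each other. In each tissue h1, h2, h3 and h4 were set against the same 3 wild-type C57BL/6J libraries, so those 4 comparisons are not independent of each other.

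Libraries held 32889755 to 59120536 estimated counts (median 42391893), and the 10 genes took 0.242% to 0.469% of them. Rorb was 2.10 lower on the log2 scale in h4 brain and 2.21 lower in h4 spinal cord, 0.91 and 0.72 lower in h2, and 0.28 lower in h1 spinal cord, all with an adjusted p under 0.05, whereas in h1 brain it differed by -0.60 (adjusted p = 0.084), in h3 it differed by -0.05 and -0.02 and in h5 by 0.40 and 0.24 without passing the test. The 5 Hox genes used as spinal cord markers summed to 177 to 223 TPM in cord libraries and to at most 8.40 TPM in brain. The cerebellum markers summed to 101 TPM in DBA/1J brain replicate 1 and to 596 and 600.4 TPM in the other DBA/1J brains, so that library was nearly without them. Of these 5 markers, 4 lay below C57BL/6J in h1 and h2 brain and 5 in h3 and h4 brain, none called. Their median log2 difference was -0.32 in h3 and -0.39 in h4. Their sums overlapped, at 601 to 820.5 TPM in C57BL/6J, 512 to 725.5 TPM in h3 and 394 to 700 TPM in h4 brain. Their part in the heat-shock results was not tested. Of 38 libraries labelled female, 3 expressed the Y-linked Ddx3y above 10 CPM (counts scaled to library size), all from h5 region replicate 3, and none of the 28 labelled male was below it. The summed meninges markers reached 282 TPM in h5 spinal cord replicate 3 against 33.2 and 46.0 TPM in the other h5 cords.

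The windows upstream of the HSP70 pair and of Hspb1, the members with the widest range across libraries, are shown first. Promoter sequences from RefSeq (GRCm38.p6) matched 8 of the 10 genes, and the 250 bases before the start site were searched for both arrangements of a pair of inverted GAA units, GAANNTTC and TTCNNGAA, each of which reads the same on both strands. One or both occurred in 12.98% of the windows of 27025 genes. They occurred in 6 of the 8 members, with 1 match in each of Hspa1b and Hspa1a (104 bases before the start), 2 in Hspb1 (117 and 97 bases before), 1 in Hsph1 and 3 in Hspe1 (89, 84 and 79 bases before the start, overlapping each other). Hspe1 and Hspd1 are divergent neighbours on chromosome 1, and the same 3 matches lay in the window of the downstream start site of Hspd1. None was found in the windows of Dnajb1 and Chordc1. The sequences of the HSP70 pair and of Hspb1 are given 5′ to 3′ on the coding strand with the matches in capitals. The window of Hspa1b is chr17:34959239-34959488 on the minus strand, that of Hspa1a is chr17:34972157-34972406 on the minus strand, and that of Hspb1 is chr5:135887669-135887918 on the plus strand.
Hspa1b: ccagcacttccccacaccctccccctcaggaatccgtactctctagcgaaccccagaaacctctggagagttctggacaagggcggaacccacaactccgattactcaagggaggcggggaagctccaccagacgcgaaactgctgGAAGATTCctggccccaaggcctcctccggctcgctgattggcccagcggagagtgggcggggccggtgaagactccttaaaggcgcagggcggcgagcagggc
Hspa1a: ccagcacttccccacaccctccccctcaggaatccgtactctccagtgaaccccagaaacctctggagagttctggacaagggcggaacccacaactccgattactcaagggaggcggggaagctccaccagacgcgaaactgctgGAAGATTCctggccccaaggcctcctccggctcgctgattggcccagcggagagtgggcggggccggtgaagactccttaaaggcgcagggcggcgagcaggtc
Hspb1: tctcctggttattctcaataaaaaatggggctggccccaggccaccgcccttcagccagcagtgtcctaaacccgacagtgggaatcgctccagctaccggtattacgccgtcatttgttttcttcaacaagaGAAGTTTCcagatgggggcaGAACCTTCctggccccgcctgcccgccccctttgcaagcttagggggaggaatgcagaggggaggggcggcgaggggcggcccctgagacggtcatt
The windows of Hspa1b and Hspa1a were identical at 98.8% of positions, and the transcripts themselves were 99.228% identical over 2201 bases. A read that spans no differing base matches both genes, and such reads were divided between them by estimate. The counts of each gene were not whole numbers in 98.5% of libraries, so the summed pair is given beside the differences of Hspa1b.

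In wild-type brain the levels of these genes, in TPM (scaled to transcript length, so that genes can be compared), covered a wide range. In C57BL/6J brain the HSC70 gene Hspa8 was highest at 1633 ± 95.8 TPM (SD, n = 3), followed by Hsp90aa1 at 876 ± 70.6 TPM. Hsph1 had 213 ± 27.5 TPM, Hspd1 162 ± 16.4 TPM and Hspe1 125 ± 7.88 TPM. The lower end was formed by Chordc1 (63.7 ± 10.4 TPM), Dnajb1 (38.3 ± 2.01 TPM) and Hspb1 (13.8 ± 1.79 TPM), with the inducible HSP70 genes last, Hspa1b at 7.78 ± 2.28 TPM and Hspa1a at 6.72 ± 1.18 TPM. Only the last 2 neighbours in this order overlapped between libraries. In DBA/1J brain the upper 5 genes kept these places, while Chordc1 (62.0 ± 9.48 TPM), Dnajb1 (52.8 ± 18.2 TPM), Hspa1b (27.0 ± 17.2 TPM), Hspb1 (17.2 ± 7.66 TPM) and Hspa1a (11.8 ± 8.34 TPM) each overlapped the next. Across all 66 libraries the highest level of Hspa1b was 37.7 times the lowest, and the corresponding factor was 10.7 for Hspb1, 10.3 for Hspa1a, 2.94 for Hsph1, 2.39 for Dnajb1, 2.03 for Chordc1, 1.79 for Hspa8, 1.77 for Hsp90aa1, 1.65 for Hspd1 and 1.53 for Hspe1.

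**Figure D1:**
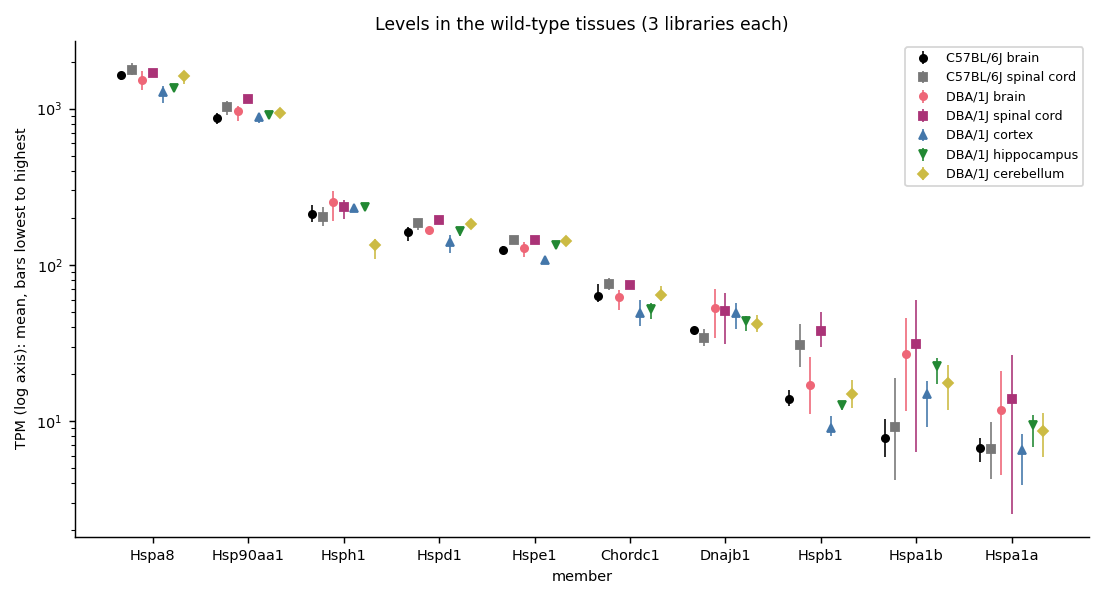
Levels of the 10 genes in the 7 wild-type groups, in TPM on a log axis, with the mean as a point and the lowest and highest library of 3 as a bar. Hspa8 and Hsp90aa1 lie highest in every group, and Hsph1 in DBA/1J cerebellum (133 TPM) lies below its level in DBA/1J cortex (233 TPM).

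The first question was how these genes compare between each Rorb mutant and its control. In each of the 13 comparisons 9 or 10 of the 10 log2 fold changes lay below 0, but few passed the test, which was edgeR's quasi-likelihood test with Benjamini-Hochberg adjustment over all genes tested (threshold 0.05, used for every adjusted p below). The members varied together, with r from 0.126 (Hspb1 with Hspd1) to 0.905 (Hspa1a with Dnajb1). Counts of members here and below are therefore not counts of separate outcomes. In brain, 2 of the 10 genes fell in h4 (0.703% of all genes tested were called there), and 0 of 10 were called in h1 (0% of all genes), h2 (0.136%), h3 (0.164%) and h5 (0%). In spinal cord, 1 of 10 fell in h1 (0.289%), 2 in h2 (2.09%), 1 in h3 (1.01%) and 2 in h4 (1.75%), and 0 were called in h5 (0.00581%). In the h5 regions 0 of 10 were called in cortex (0%), hippocampus (0.0118%) and cerebellum (0.012%). Fewer cells of a type and less RNA per cell cannot be told apart in such bulk tissue, and the p-values describe the spread between 3 or 4 mice a group.

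The median log2 difference of the 10 genes was -0.21 in h1 brain, -0.17 in h2, -0.27 in h3, -0.31 in h4 and -0.27 in h5, and in spinal cord it was -0.14, -0.11, -0.19, -0.15 and -0.19. In the h5 regions it was -0.09 in cortex, -0.12 in hippocampus and -0.27 in cerebellum. The median over all genes tested lay between -0.0031 and 0.0050 in these 13 comparisons. At an unadjusted p under 0.05 in edgeR, members numbered 6 of 10 in h1 brain (4.23% of all genes), 4 in h2 (7.45%), 8 in h3 (10.4%), 10 in h4 (13.2%) and 5 in h5 (5.8%). In spinal cord they numbered 7 in h1 (11.3%), 6 in h2 (15.6%), 8 in h3 (13.6%), 6 in h4 (14%) and 6 in h5 (8.9%). In the regions of h5 they numbered 2 in cortex (6.42%), 2 in hippocampus (4.22%) and 8 in cerebellum (5.62%). Where edgeR called none, DESeq2 called 0 members in h1 brain (0.066% of all genes), 1 in h2 brain (0.343%), 3 in h3 brain (0.752%) and 0 in h5 brain (0.255%), spinal cord (0.363%), cortex (0.235%), hippocampus (0.172%) and cerebellum (0.179%). The member that DESeq2 added in h2 brain was Hspa1b, and in h3 brain they were Hspa1b, Hspa8 and Hsph1.

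Hspa1b, which codes for inducible HSP70, had the largest difference of the 10 genes in each of the 10 brain and spinal cord comparisons, though not in the h5 regions. In brain its level was 5.87, 7.17 and 10.3 TPM in the 3 C57BL/6J mice and 4.16, 4.24, 3.51 and 3.67 TPM in the 4 h4 mice. Every h4 value lay below every control value, and Hspa1b fell by 0.96 ± 0.15 on the log2 scale (SE, 0.514-fold, adjusted p = 0.016). It was 4.28, 4.64 and 6.18 TPM in h1 brain, 5.21, 4.81, 4.24 and 3.64 TPM in h2 brain and 4.28, 4.45, 3.98 and 5.39 TPM in h3 brain. The h2 and h3 values also lay below every control, and the h1 values overlapped them. In the main fit the differences of -0.61 ± 0.19, -0.78 ± 0.17 and -0.77 ± 0.18 did not pass the test (adjusted p = 1, 0.16 and 0.17). DESeq2 called those of h2 and h3, and with sex as a covariate that of h3 passed in edgeR (-0.94, 0.030). Without control replicate 3 the 3 differences were -0.34, -0.51 and -0.50 (adjusted p = 1, 0.34 and 0.31). With the pair summed these were -0.47, -0.45 and -0.53 (adjusted p = 1, 0.38 and 0.22). Without control replicate 3, the male and the highest of the controls, the h4 difference was -0.69 (adjusted p = 0.017), and it missed the threshold without h4 replicate 2, 3 or 4 (adjusted p = 0.051, 0.054 and 0.051) and in 1 fit over all groups of the tissue (0.12). With the HSP70 pair summed, h4 brain fell by 0.67 (adjusted p = 0.035).

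In spinal cord the same control animal set much of the size of the Hspa1b differences. The C57BL/6J cords had 4.6, 4.18 and 18.9 TPM, the h4 cords 1.84, 2.26, 2.13 and 2.2 TPM, and the h2 cords 2.77, 4.18, 3.00 and 1.58 TPM. All h4 cords lay below all controls, and the h2 cords reached the lowest control. Hspa1b fell by 2.09 ± 0.39 in h4 cord (0.234-fold, adjusted p = 0.014) and by 1.68 ± 0.39 in h2 cord (0.311-fold, adjusted p = 0.034). Without control replicate 3 the h4 difference was -1.05 and kept its call (adjusted p = 0.0015), and the h2 difference was -0.65 and lost it (0.16). The h2 call was also lost without h2 replicate 1, 2, 3 or 4 in turn (adjusted p = 0.092, 0.052, 0.097 and 0.061), in DESeq2 (0.13), with sex as a covariate (0.078) and in 1 fit over all groups of the tissue (0.15). With the pair summed h4 cord fell by 1.25 (adjusted p = 0.048), and h2 cord was at -1.02 (0.077). The h1 cords had 3.19, 2.36 and 4.38 TPM and the h3 cords 1.79, 2.24, 2.80 and 4.27 TPM, overlapping the lowest control, with differences of -1.38 ± 0.41 (adjusted p = 0.18) and -1.71 ± 0.44 (adjusted p = 0.095). Both were called with sex as a covariate (-1.21 and -1.95, adjusted p = 0.0040 and 0.045). Without control replicate 3 they were -0.35 and -0.67 (adjusted p = 0.46 and 0.35), and with the pair summed they were -0.91 and -1.08 (adjusted p = 0.23 and 0.15).

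On the DBA/1J background the Hspa1b values of the wild types were spread widely. DBA/1J brains had 23.95, 45.5 and 11.6 TPM and h5 brains 14.9, 13.04 and 10.6 TPM, and DBA/1J cords had 27.6, 59.6 and 6.32 TPM against 12.3, 7.94 and 9.19 TPM in h5 cords. The h5 values lay within or below the control range and close to each other, and the differences of -1.13 ± 0.39 in brain (adjusted p = 0.70) and -1.71 ± 0.63 in cord (adjusted p = 0.54) did not pass the test. Without DBA/1J replicate 2 the differences were -0.53 in brain and -0.78 in cord, and without DBA/1J replicate 3 they were -1.495 and -2.204, none past the threshold (adjusted p = 0.98, 0.72, 0.21 and 0.13). Without DBA/1J brain replicate 1, the library nearly without cerebellum markers, the brain difference was -1.21 (adjusted p = 0.67). With sex as a covariate the differences were -0.72 in brain and -0.92 in cord (adjusted p = 1 and 0.79). With the pair summed they were -1.10 (adjusted p = 0.75) and -1.69 (0.55). In the dissected regions the DBA/1J values were 9.13, 17.99 and 17.5 TPM in cortex, 17.4, 25.1 and 25.3 TPM in hippocampus and 11.7, 23.0 and 18.04 TPM in cerebellum. The h5 values were 15.5, 13.3 and 13.8 TPM, 17.0, 17.7 and 17.5 TPM, and 11.3, 11.7 and 11.4 TPM. They overlapped the controls in each region, with differences of -0.13 ± 0.20, -0.41 ± 0.13 and -0.63 ± 0.19 (adjusted p = 0.91, 1 and 0.78), and with the pair summed of -0.11, -0.33 and -0.66 (0.92, 1 and 0.72). Without the low-count filter Hspa1b was called in cerebellum (-0.63, adjusted p = 0.050), and without DBA/1J cerebellum replicate 2 its difference there was -0.41 (adjusted p = 0.83).

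Hspa1a, the other gene of the HSP70 pair, was called in no mutant comparison, and its difference was smaller than that of Hspa1b in each of them but h5 cerebellum. Its brain level was 5.50, 6.80 and 7.85 TPM in C57BL/6J and 5.18, 5.91, 4.38 and 4.25 TPM in h4, overlapping, with a difference of -0.41 ± 0.12 (adjusted p = 0.15). In cord the C57BL/6J mice had 5.68, 4.27 and 9.87 TPM and the h4 mice 3.06, 5.07, 4.34 and 4.87 TPM, a difference of -0.59 ± 0.21 (adjusted p = 0.21). Without control replicate 3 these differences were -0.27 in brain and -0.20 in cord (0.31 and 0.70). In DBA/1J brain it was 9.89, 20.9 and 4.54 TPM and in h5 brain 6.45, 6.36 and 5.35 TPM (-1.03 ± 0.42, adjusted p = 0.84, and -0.33 without DBA/1J replicate 2 or -0.56 with sex as a covariate, 0.99 and 1). In h5 cerebellum Hspa1a differed by -0.72 ± 0.20 (adjusted p = 0.70, and 0.053 in DESeq2) and was called without the low-count filter (-0.72, 0.044). Choroid plexus and meninges markers separated the same libraries and are given with Hspb1 below. Their part in the Hspa1a and Hspa1b differences of h5 cerebellum was not tested. The ratio of Hspa1b to Hspa1a in TPM was 0.434 to 1.92 (median 0.800) in the 36 libraries of C57BL/6J or a strain derived from it and 1.89 to 2.69 (median 2.19) in the 30 libraries of DBA/1J or h5.

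**Figure D2:**
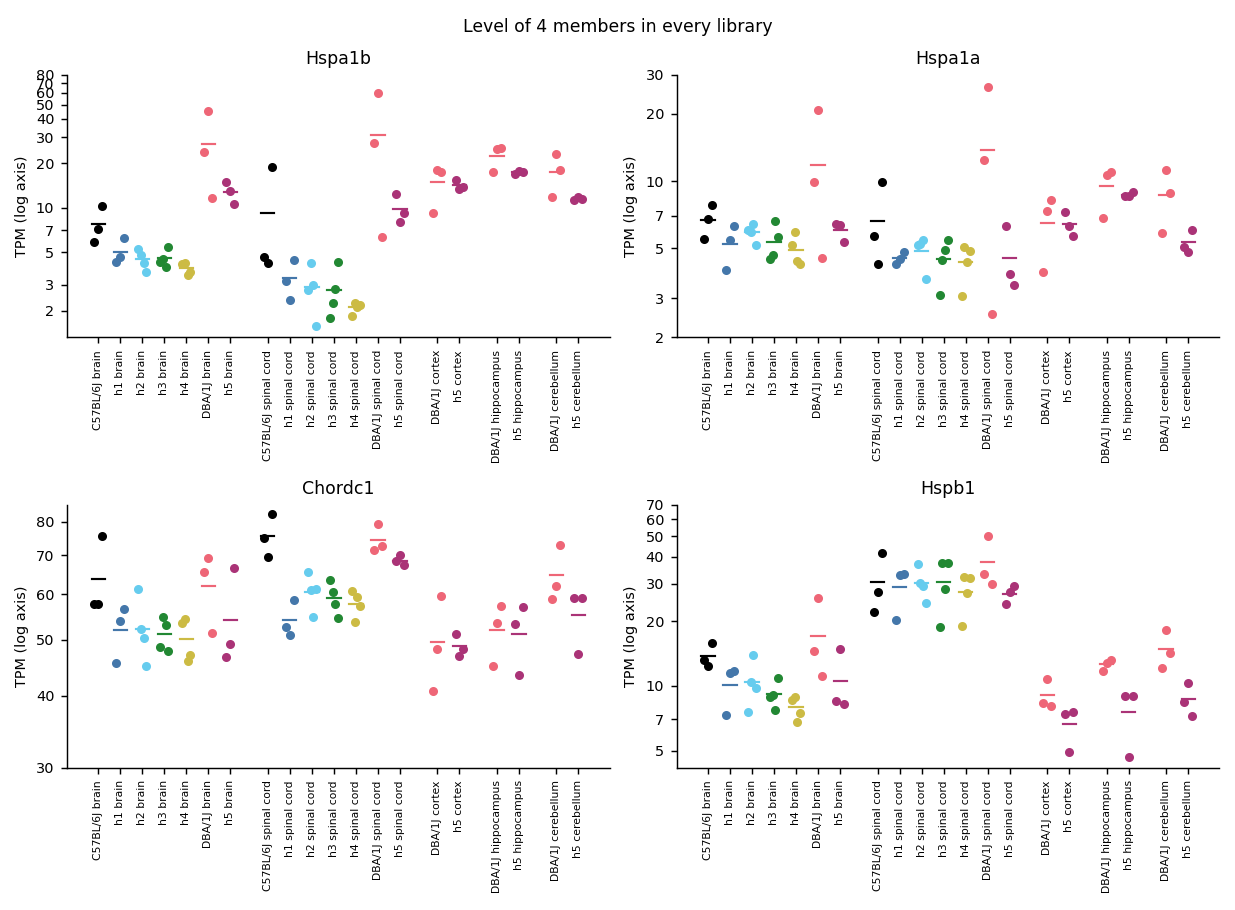
TPM of Hspa1b, Hspa1a, Chordc1 and Hspb1 in each library (points, log axis) by group, with the group mean as a line. Hspa1b in spinal cord shows 1 C57BL/6J library at 18.9 TPM above the other 2 at 4.18 and 4.6 TPM, and the DBA/1J and h5 cords lie at 6.32 TPM or above.

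Chordc1, a zinc-binding cochaperone of HSP90, was the member called in the most mutant comparisons, 4, all of them in spinal cord. The C57BL/6J cords had 75.0, 69.5 and 82.7 TPM. The h1 cords had 52.6, 51.0 and 58.6 TPM, and Chordc1 fell by 0.41 ± 0.06 on the log2 scale (0.755-fold, adjusted p = 0.0061). The h2 cords had 65.4, 60.9, 54.7 and 61.1 TPM, a fall of 0.33 ± 0.05 (adjusted p = 0.0017). All h1 and h2 cords lay below all controls. The h3 cords had 63.4, 60.5, 57.7 and 54.6 TPM, a fall of 0.33 ± 0.06 (adjusted p = 0.015), and the h4 cords had 60.8, 53.6, 59.2 and 57.3 TPM, a fall of 0.37 ± 0.06 (adjusted p = 0.0034). These too lay below all controls, so that no mutant cord on the C57BL/6J side reached the lowest control, and the 4 falls share the same 3 control mice. Neuron markers also summed lower without overlap, to 3013 to 3096 TPM in C57BL/6J cord against 2699 to 2831 TPM in h1, 2800 to 2933 TPM in h2 and 2797 to 2990 TPM in h4, and overlapped in h3 (2692 to 3228 TPM). Endothelial markers were at 222 to 242 TPM in C57BL/6J and 196 to 214 TPM in h4 cord, and sensory ganglion markers at 51.1 to 56.1 TPM in C57BL/6J and 38.3 to 40.8 TPM in h2 cord. Members of both sets went both ways. In h4 cord 3 of 5 endothelial markers were lower (log2 differences -0.39 to 0.12). In h2 cord the 2 sensory ganglion markers tested were at -0.47 and 0.53. The part of these markers in the Chordc1 results was not tested. The h2 and h4 calls were kept under every alternative tried. The h1 call missed the threshold without control replicate 1 (adjusted p = 0.10) or h1 replicate 1 (0.12) and in 1 fit over all groups of the tissue (0.051), and the h3 call without control replicate 1 (0.11), control replicate 3 (0.096) or h3 replicate 2 (0.054) and with sex as a covariate (0.051).

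In brain the Chordc1 differences were -0.27 ± 0.11 in h1, -0.27 ± 0.11 in h2, -0.31 ± 0.09 in h3 and -0.30 ± 0.09 in h4, none past the threshold in edgeR (adjusted p = 0.16 to 1), while DESeq2 called h4 (0.040). The C57BL/6J brains had 57.6, 57.7 and 75.7 TPM, and the h4 brains 53.5, 54.4, 46.0 and 47.0 TPM, all below the controls. In h5 cord Chordc1 was 68.3, 70.04 and 67.3 TPM against 71.5, 79.2 and 72.7 TPM in DBA/1J. Those groups did not overlap, but the difference was -0.13 ± 0.07 (adjusted p = 0.58). In h5 brain and regions the groups overlapped, with differences from -0.27 to -0.06. The difference between the h4 effects in cord and brain was -0.06 ± 0.12 (adjusted p = 0.93), and -0.07 ± 0.08 (0.83) with the libraries of 1 number as a block, so a larger effect in cord than in brain was not shown.

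Hspb1 codes for HSP27, a small heat-shock protein that holds unfolding proteins and is found in glia, motor neurons and vessels. In brain it was 13.2, 12.4 and 15.8 TPM in C57BL/6J and 8.61, 8.92, 6.80 and 7.48 TPM in h4. The groups did not overlap, and Hspb1 fell by 0.75 ± 0.14 in h4 brain (0.594-fold, adjusted p = 0.031). This call missed the threshold without control replicate 1 (0.12) or 3 (0.094), without h4 replicate 2, 3 or 4 (0.075, 0.096 and 0.10) and in 1 fit over all groups of the tissue (0.17). It was 7.34, 11.4 and 11.7 TPM in h1 brain, 7.53, 10.5, 14.0 and 9.74 TPM in h2 and 8.91, 9.08, 7.74 and 10.95 TPM in h3, with differences of -0.43 ± 0.18, -0.39 ± 0.19 and -0.58 ± 0.16 (adjusted p = 1, 0.71 and 0.25), the first -0.28 (0.96) without h1 replicate 1 and the second -0.25 (0.85) without h2 replicate 1. The h1 and h3 brains lay below the controls and the h2 brains overlapped them. In the cords of h1 to h4 the differences were between -0.12 and 0.02, with C57BL/6J at 22.2, 27.6 and 41.8 TPM. The h4 effect on Hspb1 differed between cord and brain by 0.64 ± 0.27 (adjusted p = 0.49).

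In h5 mice the Hspb1 difference was below 0 in each of the 5 tissues and passed the test in none, except in cerebellum without the low-count filter (-0.80, adjusted p = 0.049). Cortex had 8.30, 10.8 and 8.07 TPM in DBA/1J and 7.40, 4.92 and 7.56 TPM in h5 (-0.53 ± 0.23, adjusted p = 0.76, and -0.33, 1, without h5 cortex replicate 2). Hippocampus had 11.8, 12.8 and 13.2 TPM against 8.97, 4.68 and 8.94 TPM (-0.80 ± 0.23, adjusted p = 0.99). The lowest of these, h5 hippocampus replicate 2, stood apart in its hippocampus markers (70.7 TPM, against 129 to 135 TPM in the other 5 hippocampi) and choroid plexus markers (233 TPM against 1482 to 6166 TPM), and without it the difference was -0.57 (adjusted p = 0.52). Cerebellum had 12.2, 18.3 and 14.2 TPM against 8.42, 10.4 and 7.28 TPM (-0.80 ± 0.19, adjusted p = 0.56). Choroid plexus markers summed to 2530 to 3675 TPM in DBA/1J cerebellum and 10.8 to 2018 TPM in h5 cerebellum, and meninges markers to 173 to 196 TPM and 136 to 171 TPM, without overlap in either. The library at 10.8 TPM was h5 cerebellum replicate 3, the lowest for Hspb1, and without it the difference was -0.69 (adjusted p = 0.49). The groups did not overlap in these 3 regions or in cord (33.3, 50.01 and 29.8 TPM against 24.2, 27.6 and 29.1 TPM), and they overlapped in brain (14.6, 25.8 and 11.1 TPM against 8.48, 14.9 and 8.2 TPM). Endothelial markers summed to 223 to 257 TPM in C57BL/6J brain and 187 to 229 TPM in h4 brain. The groups overlapped, and 3 of the 5 markers were lower in h4 brain (log2 differences -0.46 to 0.13). Markers of pericytes and smooth muscle summed to 51.9 to 53.8 TPM in C57BL/6J brain. They summed to 47.2 to 51.2 TPM in h2, 41.2 to 49.3 TPM in h3 and 41.9 to 51.5 TPM in h4 brain, without overlap with the controls. Of these 5 markers, 2 were lower in h2, 5 in h3 and 3 in h4 brain. They summed to 49.6 to 81.5 TPM in DBA/1J hippocampus and 35.1 to 41.0 TPM in h5 hippocampus, again without overlap. In cortex (33.7 to 52.0 TPM in DBA/1J, 38.7 to 49.6 TPM in h5) and cerebellum (31.6 to 44.6 and 31.6 to 38.0 TPM) they overlapped. The part of all these markers in the Hspb1 results was not tested.

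Hsph1, Dnajb1, Hspa8 and Hsp90aa1 were called in no mutant comparison. Hspa8 in h4 brain came closest, with 1397, 1247, 1254 and 1259 TPM against 1528, 1656 and 1716 TPM in C57BL/6J. The groups did not overlap, and the difference was -0.32 ± 0.07 (adjusted p = 0.051), past the threshold in DESeq2 (3.2e-06), with sex as a covariate (0.029), without the low-count filter (0.012), in 1 fit over all groups of the tissue (0.023) and without h4 replicate 1 (-0.36, 0.040). Hspa8 is the constitutive HSP70 that uncoats clathrin vesicles at synapses, and its other brain differences were -0.18 ± 0.07 in h1, -0.18 ± 0.06 in h2 and -0.24 ± 0.06 in h3, with no overlap between groups. Hsph1, the exchange factor of HSP70, was 199, 177 and 234 TPM in C57BL/6J cord and 172, 173, 161 and 178 TPM in h3 cord. These overlapped at the lowest control, and the difference was -0.27 ± 0.06 (adjusted p = 0.053, and 0.00077 in DESeq2, 0.033 with sex as a covariate, 0.0022 without the low-count filter and 0.040 in 1 fit over all groups of the tissue). Without control cord replicate 2, the lowest control, Hsph1 was called in the cords of h1, h2, h3 and h4 (-0.24, -0.25, -0.35 and -0.27, adjusted p = 0.037, 0.019, 0.018 and 0.035) and Hsp90aa1 too (-0.20, -0.20, -0.25 and -0.24, adjusted p = 0.031, 0.026, 0.029 and 0.035). Hsph1 in h3 cord was also called without h3 replicate 1 (-0.28, 0.042). Dnajb1, the HSP40 that hands substrates to HSP70, differed by -0.18 to -0.04 in the brains of h1 to h4 and by -0.12 to 0.04 in their cords. It was 54.2, 70.3 and 34.0 TPM in DBA/1J brain and 37.3, 42.1 and 37.4 TPM in h5 brain, overlapping, with a difference of -0.51 ± 0.20 (adjusted p = 0.81), which was -0.25 (0.98) without DBA/1J replicate 2 and -0.29 (1) with sex as a covariate. Hsp90aa1 differed by -0.18 to -0.05 in the 13 comparisons, with adjusted p of 0.14 or more.

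The mitochondrial pair Hspd1 and Hspe1, which share a promoter region and form 1 folding chamber, were called in no mutant comparison. Hspd1 differed by -0.16 to 0.10 and Hspe1 by -0.25 to -0.01 in the 13 comparisons. Hspe1 was lowest relative to its control in h5 cerebellum, with 126, 116 and 122 TPM against 137, 148 and 141 TPM in DBA/1J. Those groups did not overlap, and the difference was -0.25 ± 0.07 (adjusted p = 0.69, and -0.25, 0.55, without h5 replicate 3). The choroid plexus and meninges markers, which separate the same libraries, are given with Hspb1 above, and their part was not tested. Hspd1 in the same tissue had 171, 164 and 175 TPM against 174.5, 186 and 184 TPM, overlapping, with a difference of -0.11 ± 0.05 (adjusted p = 0.87). In whole brain the differences of h5 from DBA/1J were -0.12 ± 0.05 for Hspd1 and -0.01 ± 0.09 for Hspe1.

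Whether an allele acted differently in cord and brain was tested directly as an interaction, in a fit that treats the brain and cord libraries as independent. With the libraries of 1 number as a block, 0 members were called for any allele, and in h4 the SE of the Hspa1b interaction went from 0.51 to 0.29 (-0.89, adjusted p = 0.33). In the fit without the block no member was called in edgeR for h1 (0% of all genes called, with 0 of 10 members and 3.75% of all genes at an unadjusted p under 0.05), h2 (0%, with 0 members and 5.49%), h3 (0%, with 0 members and 4.96%), h4 (0.0054%, with 3 members and 9.13%) or h5 (0%, with 0 members and 4.06%). DESeq2 also called 0 members for h1 (0% of all genes), h2 (0.0182%), h3 (0.0109%), h4 (0.302%) and h5 (0.00744%). The 3 members in h4 were Hspa1b, which was further below control in cord (-1.13 ± 0.51, adjusted p = 0.53 in edgeR, and -0.57, 0.69, with the pair summed), and Hspa8 (0.20 ± 0.08, adjusted p = 0.48) and Hspb1, which were further below it in brain. Control replicate 3 set much of the size of the Hspa1b difference in cord, as given above. The Hspa1b interaction is given with that mouse included.

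Other genes of the folding machinery were taken from lists of known function, which were chosen with earlier results of these data known. Of 24 further genes linked to HSF1, most of them cytosolic, 2 fell in h4 brain (0.703% of all genes were called there), 3 in h2 cord (2.09%), 2 in h3 cord (1.01%) and 2 in h4 cord (1.75%), and none rose in any mutant comparison. The median of the list lay between -0.13 and 0.05 in the 13 comparisons. Those called were Ahsa1 and Ahsa2 (activators of the HSP90 ATPase), Fkbp4 and Ptges3 (HSP90 cochaperones), St13 (an HSP70 partner), Cryab (alpha-B crystallin) and Serpinh1 (a collagen chaperone of the endoplasmic reticulum), with Cryab lower by 0.46 ± 0.07 in h3 cord (adjusted p = 0.0089). None of the 8 subunits of the cytosolic chaperonin TRiC or of the 8 mitochondrial chaperones and proteases was called in a mutant comparison. Medians of TRiC lay between -0.09 and 0.10.

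The 12 chaperones of the endoplasmic reticulum, which answer to the unfolded protein response, were taken as a further list. Of the 12, 2 fell in h2 brain (0.136% of all genes called), 9 in h3 brain (0.164%) and 10 in h4 brain (0.703%), and 1, 7, 9 and 9 fell in the cords of h1 (0.289%), h2 (2.09%), h3 (1.01%) and h4 (1.75%). None rose, and none was called in h1 brain or in any h5 tissue. Hspa5, which codes for BiP, the HSP70 of that compartment, fell by 0.71 ± 0.10 in h3 brain (adjusted p = 0.017) and by 0.70 ± 0.09 in h4 brain (adjusted p = 0.0055). Sdf2l1, a partner of BiP, fell by 0.98 ± 0.13 in h3 brain and by 0.82 ± 0.11 in h4 brain (adjusted p = 0.017 and 0.0073). The median of the list was -0.46 in h3 and h4 brain and -0.37 and -0.32 in their cords, while that of the 10 heat-shock genes was -0.27, -0.31, -0.19 and -0.15. Of 9 genes induced by glucocorticoid, 2 fell in each of h2, h3 and h4 brain and 4, 3 and 4 in their cords, against the same shares of all genes, among them Cdkn1a by 0.89 ± 0.11 in h4 brain (adjusted p = 0.0038). Of 11 immediate early genes, 2 fell in h1 cord (Fos by 0.52 ± 0.09 and Arc by 0.30 ± 0.06, adjusted p = 0.018 and 0.045) and 1 in h2 cord (0.289% and 2.09% of all genes called), and none was called in brain. Of 15 clock genes, 4 were called among the mutant comparisons, all in h2 or h4 cord (2.09% and 1.75% of all genes called), with Dbp 0.51 ± 0.07 higher in h2 and Npas2 differing by -0.60 ± 0.08 in h2 and -0.77 ± 0.09 in h4. The part of these genes in the heat-shock results was not tested.

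Between wild types of the 2 strains, 2 of 10 members were called in brain (11.2% of all genes) and 1 of 10 in cord (21.3%). Hspa1b was 5.87 to 10.3 TPM in C57BL/6J brain and 11.6 to 45.5 TPM in DBA/1J brain. The groups did not overlap, and Hspa1b was 1.84 ± 0.41 higher in DBA/1J (3.59-fold, adjusted p = 0.019). The call missed the threshold without C57BL/6J replicate 1 or 2 (0.077 and 0.090), and the difference was 1.91 (0.022) without DBA/1J replicate 1, the brain low in cerebellum markers. In cord the groups overlapped and the difference was 1.79 ± 0.65 (adjusted p = 0.071), and it was called without C57BL/6J cord replicate 3 (2.82, 0.013, with Hsp90aa1 at 0.23, 0.032). Without DBA/1J replicate 3, the lowest of that strain in both tissues, Hspa1b, Hspa1a and Dnajb1 were higher in DBA/1J brain by 2.204, 1.25 and 0.75 (adjusted p = 0.0014, 0.021 and 0.0023) and in DBA/1J cord by 2.29, 1.59 and 0.86 (0.0017, 0.00097 and 1.3e-05), and Hsph1 (0.26) and Hsp90aa1 (0.20) were called there too. Without DBA/1J replicate 2, the highest, the same 3 genes differed by 1.25, 0.17 and 0.26 in brain (adjusted p = 0.040, 0.79 and 0.39) and by 0.87, 0.17 and 0.30 in cord (0.35, 0.86 and 0.28), against 1.84, 0.86 and 0.52 and 1.79, 1.08 and 0.58 with all libraries. With sex as a covariate they were 1.38, 0.39 and 0.32 in brain (adjusted p = 0.018, 0.59 and 0.31) and 0.95, 0.22 and 0.31 in cord (0.021, 0.75 and 0.16). With the HSP70 pair summed, brain differed by 1.46 (adjusted p = 0.049) and cord by 1.53 (0.092).

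Hspa8 was the other member called between strains, and its difference was near 0 once the counts of its near-identical copies were added. By estimated count it was 0.61 ± 0.10 lower in DBA/1J brain (adjusted p = 0.0029) and 0.63 ± 0.06 lower in DBA/1J cord (adjusted p = 6.8e-06), while by TPM the strains overlapped, at 1528 to 1716 and 1311 to 1731 TPM in brain. Gm15459, whose transcript is 99.742% identical to that of Hspa8 over 1941 bases, had 5.83 to 11.8 CPM in the 36 libraries of C57BL/6J or a derived strain and 427 to 780 CPM in the 30 libraries of DBA/1J or h5. It took 0.329% to 0.698% of the CPM of both genes in the former and 32.1% to 37.4% in the latter. The effective length that the authors' program gave Hspa8 was 1956.5 to 2110 bases in the former and 1308 to 1461 bases in the latter. With Hspa8 and its near-identical copies summed before the fit, an alternative chosen after seeing the data, the difference between strains was 0.01 in brain (adjusted p = 0.95) and 0.02 in cord (adjusted p = 0.86). In no mutant comparison did this sum add or remove a call of Hspa8.

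**Figure D3:**
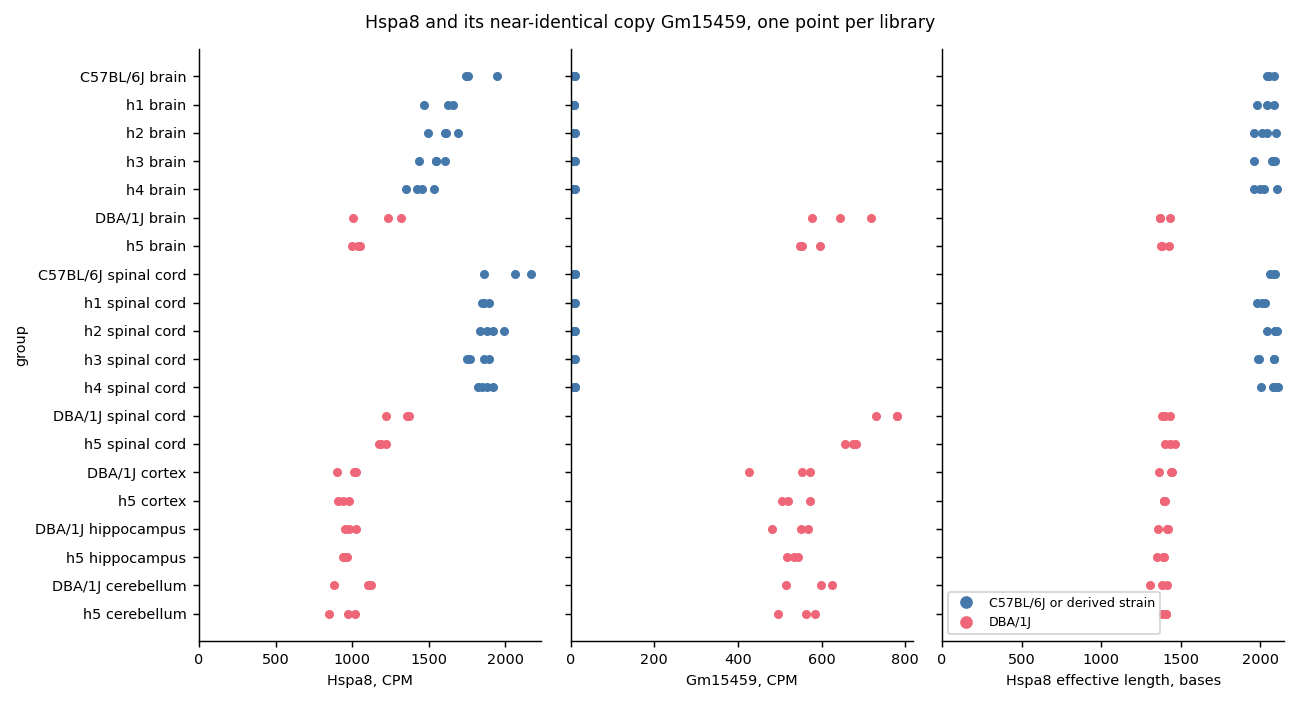
CPM of Hspa8, CPM of its copy Gm15459 and effective length of Hspa8 in each library by group. Gm15459 lies at 5.83 to 11.8 CPM in C57BL/6J and derived strains and at 427 to 780 CPM in DBA/1J and h5, and no library falls between.

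Between tissues of wild-type mice, Hspb1 differed most. It was 22.2 to 41.8 TPM in C57BL/6J cord and 12.4 to 15.8 TPM in C57BL/6J brain, without overlap, and was higher in cord by 1.16 ± 0.19 in C57BL/6J (2.23-fold, adjusted p = 0.00014) and by 1.10 ± 0.31 in DBA/1J (adjusted p = 0.013, and 0.80 higher with 0.057 without DBA/1J cord replicate 2). These fits treated same-numbered cord and brain libraries as independent. With the number as a block Hspb1 was 1.14 ± 0.10 higher in DBA/1J cord (adjusted p = 4.1e-05). In all, 5 of 10 members were higher in cord than brain in C57BL/6J (56.9% of all genes called) and 3 of 10 in DBA/1J (50.8%), and none was lower. The others were Hsp90aa1 (0.27 and 0.22 in the respective strains, adjusted p = 0.0074 and 0.037) and Hspd1 (0.23 and 0.21, adjusted p = 0.0031 and 0.010), and in C57BL/6J also Hspe1 (0.24, 0.022) and Chordc1 (0.27, 0.029). With the number as a block Chordc1 was also called in DBA/1J (0.24, adjusted p = 0.017), as it was with sex as a covariate (0.24, 0.025). In C57BL/6J the Chordc1 call was lost without brain replicate 1 or 2 or cord replicate 1 or 3 (0.083, 0.15, 0.075 and 0.12), the Hspe1 call without brain replicate 2 or cord replicate 2 or 3 (0.099, 0.083 and 0.063) and the Hsp90aa1 call without brain replicate 2 (0.057). Hspa8 gained a call without C57BL/6J brain replicate 3 (0.20, 0.019) or cord replicate 2 (0.22, 0.037), in DESeq2 (0.15, 0.029) and with sex as a covariate (0.15, 0.040). In DBA/1J the Hsp90aa1 call was lost without brain replicate 3 or cord replicate 1 or 2 (0.10, 0.062 and 0.14), and Chordc1 gained one without brain replicate 2 (0.32, 0.049). Without C57BL/6J cord replicate 3 Hspa1b was lower in cord by 0.79 (adjusted p = 0.0057) and Dnajb1 by 0.22 (0.025), whereas with it Hspa1b was 0.24 higher and the difference of Dnajb1 was -0.14, neither called; with the pair summed and that library kept the difference was 0.13 (0.76). Oligodendrocyte markers summed to 20166 to 21986 TPM in C57BL/6J cord and 5688 to 6528 TPM in brain; their part in the result was not tested.

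Among the dissected DBA/1J regions Hsph1 stood out. It was 218, 239 and 241 TPM in cortex, 227, 236 and 243 TPM in hippocampus and 109, 144 and 147 TPM in cerebellum. Cerebellum lay below both, by 1.08 ± 0.12 against cortex (0.473-fold, adjusted p = 4.5e-05) and by 1.02 ± 0.09 against hippocampus (adjusted p = 2.8e-06). In all, 4 of 10 members were called between cerebellum and cortex (58.1% of all genes), 1 between hippocampus and cortex (20.6%) and 2 between hippocampus and cerebellum (64%). Dnajb1 was lower in cerebellum than cortex by 0.47 ± 0.12 (adjusted p = 0.0097), and Hspb1 and Hspe1 were higher by 0.50 ± 0.19 and 0.19 ± 0.07 (0.049 and 0.046). The Hspb1 call was lost without cortex replicate 1 or 3 or cerebellum replicate 2 or 3 (0.096, 0.11, 0.19 and 0.10), in DESeq2 (0.060) and with its size factors in edgeR (0.053). It was kept with the number as a block (0.49, 0.031). The Hspe1 call was lost without cortex replicate 1 or 2 (0.088 and 0.15), without cerebellum replicate 1, 2 or 3 (0.057, 0.14 and 0.12), in DESeq2 (0.081), with its size factors (0.053), without the low-count filter (0.059) and with the number as a block (0.058), and Hspd1 gained one without cortex replicate 3 (0.23, 0.045). Hspe1 was higher in hippocampus than cortex by 0.30 ± 0.07 (adjusted p = 0.013), and with the block Hspd1 (0.23), Hspa1b (0.58) and Hspa1a (0.52) were called as well (0.030, 0.0061 and 0.015). DESeq2 also called Hspa1b there (0.55, adjusted p = 0.045), while the summed pair without the block was at 0.54 (0.15). That Hspe1 call was lost without cortex replicate 2 or hippocampus replicate 1 or 3 (0.065, 0.052 and 0.069), and Dnajb1 was called without cortex replicate 1 (-0.33, 0.044). Hspa1b was higher in hippocampus than cerebellum by 0.52 ± 0.20 (adjusted p = 0.043), a call lost without hippocampus replicate 2 or 3 (0.11 and 0.11), without cerebellum replicate 1 (0.29, 0.14) or 3 (0.073), in DESeq2 (0.17) and with the pair summed (0.44, 0.078). DESeq2 called Dnajb1 (0.23, 0.047) and Hsp90aa1 (0.14, 0.043) instead. With the block Dnajb1 (0.23, 0.013) and Hspa1a (0.31, 0.025) were added. Dnajb1 was also called without hippocampus replicate 1 (0.32, 0.015) or cerebellum replicate 2 (0.30, 0.026), and Hsp90aa1 without cerebellum replicate 3 (0.20, 0.015). Choroid plexus markers summed to 20.1 to 869 TPM in DBA/1J cortex, 1482 to 6166 TPM in hippocampus and 2530 to 3675 TPM in cerebellum. Meninges markers summed to 62.4 to 81.6, 180 to 303 and 173 to 196 TPM in the same order. Cortex lay below both other regions without overlap, and the part of these markers was not tested.

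Mice of 1 group differed among themselves in these genes, and for several of them the deviations in the brain and cord libraries of the same number, taken as 1 mouse, went together. Deviations from the group mean were taken for these 24 pairs of libraries, on log2 CPM. Dnajb1 gave Pearson's r = 0.95 and Spearman's rho = 0.84 between brain and cord, Hspa1a r = 0.90 and rho = 0.71, Hspa1b r = 0.89 and rho = 0.77, Hsph1 r = 0.83 and rho = 0.67 and Hspa8 r = 0.72 and rho = 0.71. The median r over 19816 genes was 0.052 and the 95th percentile 0.498, and r at or above that of Dnajb1 was found for 0.0505% of genes. Without the 2 mice farthest from the median r was 0.80 for Dnajb1, 0.60 for Hspa1a, 0.76 for Hspa1b, 0.70 for Hsph1 and 0.61 for Hspa8. The other members gave less, with r = 0.42 for Hspb1, 0.37 for Hsp90aa1, 0.35 for Chordc1 and 0.06 for each of Hspd1 and Hspe1. DBA/1J mouse 2 was highest and mouse 3 lowest of its group for Dnajb1 in both tissues (70.3 and 66.5 TPM against 34.0 and 31.4 TPM), and the same held for Hspa1b (45.5 and 59.6 TPM against 11.6 and 6.32 TPM). C57BL/6J mouse 3 was highest of its group for Hspa1b in both. DBA/1J mouse 2 was a male of 8.9 weeks and mouse 3, at 8.4 weeks, the only female of that group, while C57BL/6J mouse 3 was the only male of its group. The blood markers summed to 1604 and 1199 TPM in brain and cord of DBA/1J mouse 2 and to 333 and 491 TPM in those of mouse 3. The part of sex, age and blood was not tested. These correlations describe mice of shared groups, dissection and sequencing, and carry no p-value.

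**Figure D4:**
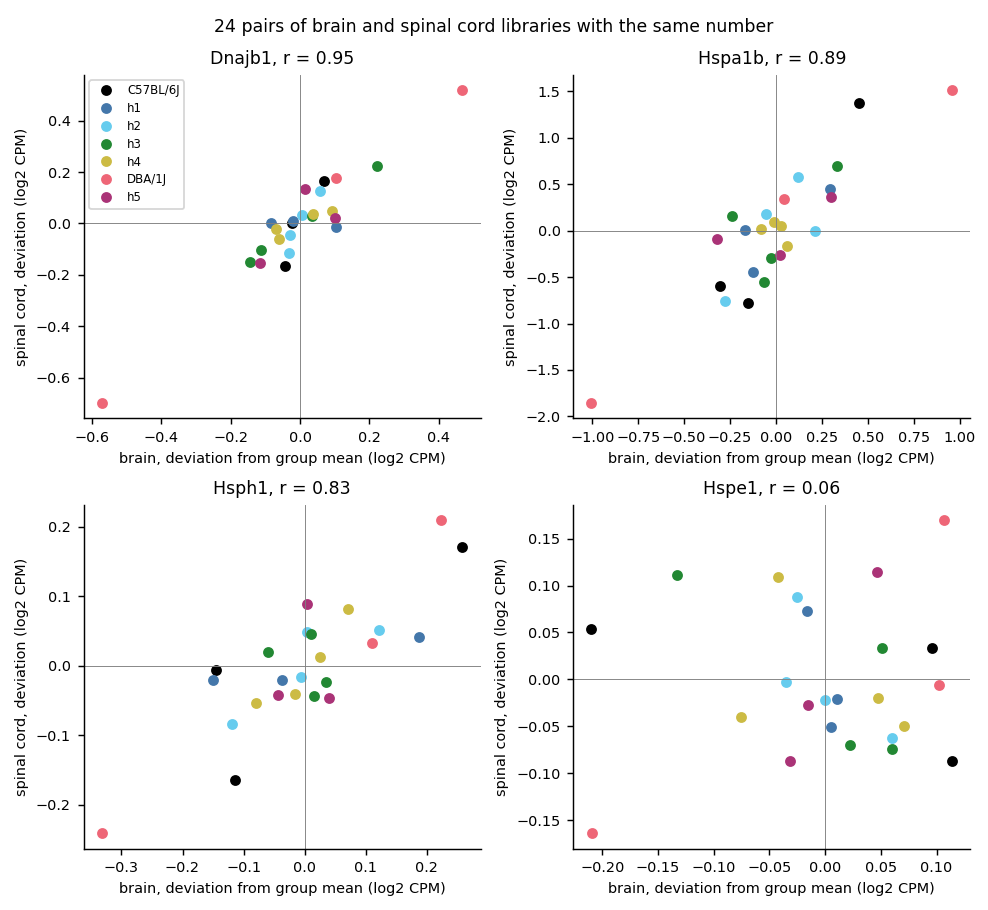
Deviation from the group mean in brain (horizontal axis) against that in spinal cord (vertical axis), in log2 CPM, for 24 pairs of libraries with the same number, with 1 panel each for Dnajb1, Hspa1b, Hsph1 and Hspe1. Points of Dnajb1 follow the diagonal (r = 0.95), with DBA/1J mice at both ends, and those of Hspe1 do not (r = 0.06).

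An index of the inducible genes was made as the mean deviation of Hspa1a, Hspa1b, Hsph1 and Dnajb1 from the group means over the 66 libraries. It was highest in DBA/1J cord replicate 2 (0.95) and DBA/1J brain replicate 2 (0.68) and lowest in DBA/1J cord replicate 3 (-1.18) and DBA/1J brain replicate 3 (-0.75), and C57BL/6J cord replicate 3 stood at 0.59. These DBA/1J libraries, taken as mice 2 and 3 of that group, weigh most in each r with the index below. No r without them is given. Among members, r with the index was 0.67 for Hspa8, 0.57 for Hspb1, 0.50 for Hsp90aa1, 0.49 for Hspe1, 0.48 for Hspd1 and 0.44 for Chordc1. For Chordc1, r was 0.74 with each of Hspd1 and Hsph1, 0.69 with each of Hsp90aa1 and Hspa8 and 0.38 with Hspa1b. The 10 genes outside the members with the highest r, of 19479 ranked, were Hsp90ab1 (0.75, constitutive HSP90 beta), Ccdc117 (0.75), Dnaja4 (0.69, an HSP40), Ahsa2 (0.68), Dnaja1 (0.68, an HSP40), Alkbh5 (0.66, an RNA demethylase), Rbm12b1 (0.66), Hexim1 (0.66, an inhibitor of the elongation factor P-TEFb), Bend4 (0.66) and Hyou1 (0.65, an HSP110 relative of the endoplasmic reticulum). The median r over the genes ranked was 0.0011 and the 95th percentile 0.325. The lowest r was that of Cirbp (-0.69), which codes for a cold-inducible RNA-binding protein, and it is named after its value was seen. Of the HSF1-linked list, Ahsa1 (0.64), Fkbp4 (0.64), Dnajb4 (0.62) and Stip1 (0.62) followed, while Hsf1 itself was at 0.07.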

How the data were processed

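RNA was sequenced in 66 mouse libraries. Per the submitters' processing notes, reads were trimmed with Trim Galore, checked with FastQC and quantified with RSEM on GRCm38 (mm10), and the study's methods name STAR as the aligner. The annotation release is not given in the sources used here. The authors deposited, per gene and library, RSEM expected counts, with reads that match several genes divided by estimate, and TPM. Expected counts were rounded to whole numbers and tested with edgeR 4.0.16 in R 4.3.3 (TMM scaling, filterByExpr with a minimum count of 10, quasi-likelihood test, Benjamini-Hochberg adjustment over all genes tested, calls at 0.05), fitting the 2 groups of a comparison. The SE of a log2 fold change was its size divided by the square root of F. Fits were tested on simulated counts. CPM used TMM library sizes. Near-identical transcripts were found with BLAST+ 2.17.0 (90% identity over 200 bases).

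The 10 members and all gene lists were chosen with earlier results of these data known. Genes were named if they were members, Rorb, the 10 genes most like the index, or pathway genes called in at least 2 mutant comparisons or beside a called member, at most 6 per comparison. Alternatives were DESeq2 1.42.0, TMM replaced by DESeq2's size factors, all genes kept whatever their counts, a term for sex, a block for the replicate number, the sum of Hspa1a and Hspa1b, 1 fit of all groups of a tissue, each library left out, and, chosen after seeing the data, Hspa8 summed with its copies. In the tissue comparisons same-numbered libraries share genotype, sex and age in the labels and were taken as the same mouse, which the labels do not state, so the block pairs them on that reading. Their deviations from the group means correlated at 0.032 to 0.162 between cord and brain in C57BL/6J, at 0.030 to 0.180 in DBA/1J and at -0.059 to 0.193 between the regions. The study's methods describe each h5 brain as split between a hemisection and dissection into regions, whereas the labels give regions and hemisections different ages. In h1 brain same-numbered deviations from the group means correlated at 0.115, 0.116 and 0.234, and the block left the count of called members at 0. The h1 and C57BL/6J mice of a number are different animals that share sex and age in the labels. Nothing in the labels says that mice of a group came from separate litters. Between-replicate spread limits the precision, and depth was 32889755 to 59120536 expected counts a library.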

Additional observations from a re-analysis of the deposited data

Results flagged for a closer look

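Of 60 sets of 4 mice (10 genes in 6 groups), 6 had a highest or lowest mouse whose gap to the nearest other mouse was an unusually large share of the range; chance gives about 1 in 20. In h2 brain replicate 1 was highest for Hsp90aa1 (858.5 TPM, next 769 TPM, gap 0.852 of the range) and for Hspd1 (167.8 TPM, next 147.4 TPM, 0.892). Hspa8 in h4 brain was highest in replicate 1 (1397 TPM, next 1259 TPM, 0.919). In spinal cord Hspa1a was lowest in h2 replicate 4 (3.64 TPM, next 5.17 TPM, 0.85), which also had the lowest Hspa1b of all 66 libraries. Dnajb1 was highest in h3 cord replicate 4 (38.31 TPM, next 31.97 TPM, 0.84), and Hsp90aa1 was lowest in h4 cord replicate 3 (859.5 TPM, next 912.4 TPM, 0.915).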

How the results depend on the processing

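Counts of called members depended on the processing more than the size of the differences did. DESeq2 called 1 member in h2 brain, 3 in h3 brain, 5 in h4 brain, 1 in h2 cord, 4 in h3 cord, 4 in h4 cord, 2 between cerebellum and cortex, 2 between hippocampus and cortex and 3 between hippocampus and cerebellum, and its size factors in edgeR gave 2 between cerebellum and cortex. Without the low-count filter the counts were 1 in h2 brain, 1 in h3 brain, 5 in h4 brain, 4 in each of h1, h2 and h3 cord, 5 in h4 cord, 3 in h5 cerebellum and 5 between strains in cord. With sex as a covariate they were 1 in h3 brain, 4 in h4 brain, 2, 1, 2 and 4 in h1, h2, h3 and h4 cord and 2 between strains in cord. In 1 fit of all groups of the tissue they were 1 in h4 brain and 0, 1 and 3 in h1, h2 and h3 cord. With the replicate block they were 2, 1 and 3 in h1, h2 and h3 cord, 1 between strains in brain, 4 between hippocampus and cortex and 4 between hippocampus and cerebellum; the block changed no other count by over 1.5 times. Outside the tissue comparisons and the differences between cord and brain in the effect of an allele, the numbers do not pair the mice. With Hspa1a and Hspa1b summed and counted once, 1 was called in h2 cord and 1 between hippocampus and cerebellum. With Hspa8 summed with its copies, 1 was called between strains in brain and 0 in cord, and the Hspa8 difference reversed to 0.013 and 0.020. Leaving out each library in turn gave 0 to 3 in h4 brain, 0 to 3, 1 to 4, 0 to 3 and 2 to 4 in h1, h2, h3 and h4 cord, 1 to 4 and 1 to 6 between strains in brain and cord, 2 to 6 and 1 to 4 between tissues in C57BL/6J and DBA/1J, 2 to 4 between cerebellum and cortex, 0 to 2 between hippocampus and cortex and 1 to 3 between hippocampus and cerebellum. Leaving out each library in turn also turned the sign of several small differences, among them those in h5 cortex, which ranged over -0.3604 to 0.02293 for Hspa1b, -0.1839 to 0.03883 for Chordc1, -0.3255 to 0.1035 for Hspa1a and -0.114 to 0.01468 for Hsph1, and in h5 hippocampus those of Chordc1 (-0.1428 to 0.0289) and Hspd1 (-0.020, and 0.015 without DBA/1J replicate 3). Of the 10 genes most like the index 6 were shared when brain and cord libraries alone were used. Apart from the Hspa8 sum and the omissions of a library given above, the cause of these shifts was not tested.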
